A study of Mus musculus with 7 samples.

Results

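The genes described here encode the enzymes that cut the extracellular matrix and the proteins that hold those enzymes in check. They were selected by symbol, by a rule that uses no measured values, although earlier results of these data were known when it was chosen. The selection took matrix metalloproteinases (Mmp), the ADAMTS proteases and ADAMTS-like proteins, the tissue inhibitors of metalloproteinases (Timp), and Plau, Plaur, Plat, Reck, Fap, Htra1, Htra3, Bmp1 and Tll1. Serpine2, a protease inhibitor that the selection also names, was not analysed here. In all 51 genes were found among 18193 genes named on the array, and they were read by 94 of its 45101 probe sets. Of the 51 genes 18 were Mmp genes, 15 ADAMTS proteases, 5 ADAMTS-like genes and 4 Timp genes. Each gene was represented by its brightest probe set, whose intensity is given on the linear scale of the deposited values. Changes are differences of mean log2(intensity + 1).

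Transcripts were measured on 7 Affymetrix arrays of myoblasts, the precursor cells of skeletal muscle fibres, from mice on the C57BL/6 background. The Hmga2 KO group held 4 samples from Hmga2 -/- mice, with replicates 1 and 3 male and replicates 2 and 4 female. The wild type group held 3 samples, all from females. No treatment was given to either group, and the labels state neither the age of the mice nor how the cells were obtained. They give each sample a number of its own within its group, without saying whether it stands for 1 animal. The Hmga2 protein attaches to A- and T-rich stretches of DNA and is made mainly in embryonic and precursor cells.

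Matrix metalloproteinases are zinc enzymes made as inactive precursors. Some are secreted and others are anchored in the membrane, and together they cut collagens, other matrix proteins and cell surface proteins. ADAMTS proteases are secreted zinc enzymes that bind the matrix and cut proteoglycans such as versican and aggrecan or process procollagens, whereas ADAMTS-like proteins share their ancillary domains and lack the catalytic one. Timp proteins block the active site of metalloproteinases, and Reck is a membrane-anchored inhibitor. Plau and Plat turn plasminogen into plasmin, a serine protease that also activates metalloproteinases. In muscle these systems remodel the basement membrane around satellite cells and open the matrix to migrating and fusing myoblasts.

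The promoter sequences of 5 members are shown because the results turn on their genes or, for Mmp10, because it was the only measured gene of its cluster with a mean intensity above the array median. Mmp16, whose values matter as much, had no entry. Each is the 250 bases before the most upstream annotated start, 5′ to 3′, from RefSeq on GRCm38.p6. Capitals mark TGANTCA (the binding motif of AP-1, searched on both strands), TATAAA on either strand, and any stretch of at least 6 letters that are all A or T, which can overlap TATAAA.
Mmp23 (GRCm38.p6, chr4:155653385-155653634, minus strand): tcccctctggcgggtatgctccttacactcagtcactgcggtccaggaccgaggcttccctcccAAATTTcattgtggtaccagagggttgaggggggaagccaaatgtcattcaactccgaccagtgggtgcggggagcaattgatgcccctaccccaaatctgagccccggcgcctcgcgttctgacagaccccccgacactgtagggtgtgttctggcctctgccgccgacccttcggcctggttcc
Adamtsl3 (GRCm38.p6, chr7:82335444-82335693, plus strand): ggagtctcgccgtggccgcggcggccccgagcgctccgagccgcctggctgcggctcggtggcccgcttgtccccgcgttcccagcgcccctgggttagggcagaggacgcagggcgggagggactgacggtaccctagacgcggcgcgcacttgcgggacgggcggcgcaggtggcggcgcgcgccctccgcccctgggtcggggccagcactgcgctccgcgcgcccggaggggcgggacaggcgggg
Adamtsl2 (GRCm38.p6, chr2:27079129-27079378, plus strand): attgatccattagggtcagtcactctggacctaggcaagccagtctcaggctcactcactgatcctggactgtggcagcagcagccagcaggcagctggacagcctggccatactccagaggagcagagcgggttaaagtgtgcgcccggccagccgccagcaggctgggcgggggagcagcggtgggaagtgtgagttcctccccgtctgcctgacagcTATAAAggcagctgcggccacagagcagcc
Timp3 (GRCm38.p6, chr10:86300162-86300411, plus strand): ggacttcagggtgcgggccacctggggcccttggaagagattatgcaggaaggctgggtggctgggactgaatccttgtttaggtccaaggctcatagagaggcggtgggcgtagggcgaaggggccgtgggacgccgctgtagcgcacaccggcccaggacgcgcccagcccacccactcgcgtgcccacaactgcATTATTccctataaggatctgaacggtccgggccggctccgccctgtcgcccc
Mmp10 (GRCm38.p6, chr9:7502092-7502341, plus strand): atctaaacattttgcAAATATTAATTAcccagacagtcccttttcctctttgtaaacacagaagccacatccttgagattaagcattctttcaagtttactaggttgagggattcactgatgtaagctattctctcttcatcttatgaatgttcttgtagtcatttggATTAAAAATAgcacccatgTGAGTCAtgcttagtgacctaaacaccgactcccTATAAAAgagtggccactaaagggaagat

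Entries were found for 32 of the 51 genes. The share of A and T in this window was 38.8% for Mmp23, 37.2% for Adamtsl2, 34.4% for Timp3 and 20% for Adamtsl3. All were below the median of 47.6% over 32851 promoter windows, whereas Mmp10 had 62.8%. The median of the 32 members was itself 38%. TGANTCA was present in 8 of the 32 windows and in 6.75% of all windows. TATAAA was present in 9 of the 32 and in 12.4% of all, and an A or T stretch in 19 of the 32 and in 66.9% of all. Both motifs stood together in 7 members and in 1.21% of all windows. Those 7 were Mmp1a, Mmp1b, Mmp3, Mmp7, Mmp10, Mmp13 and Mmp20. They belong to a run of 10 adjacent protein-coding genes in the RefSeq order, all of them Mmp genes, of which 9 were measured. The Mmp23, Adamtsl3 and Timp3 windows held neither motif, as was the case for most of the 32.

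The label of the mutant was borne out on the array. The brightest Hmga2 probe set read 96.6, 85.7, 96.7 and 104.5 in Hmga2 KO replicates 1 to 4, against 11999, 9998 and 12800 in wild type. Each array had a median intensity of 150. The 9 probe sets of Y-linked genes read 33.9 to 58.2 in the 5 female samples, which lack those genes, and 58.2 therefore serves below as the top of the background. All 9 myoblast markers were above 58.2, with summed intensities of 51745 to 66895 in Hmga2 KO and 61015 to 67568 in wild type. Myog and Myod1 were the brightest of them, and Msc read only 71.7 to 81.4. Chrna1 alone had an unadjusted p under 0.05, lower in Hmga2 KO (change -0.29, unadjusted p = 0.0254, adjusted p = 0.326, limma). Passing 58.2 does not tell cell types apart, since no fibroblast or leukocyte marker was within the background in all samples either. Wild type replicate 2 had the highest 3′ over 5′ signal ratio of the Actb controls, 1.94, where the remaining samples had 1.61 to 1.74. In such bulk samples fewer cells of a type and less RNA per cell cannot be told apart.

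Among the protease and inhibitor genes none passed an adjusted p of 0.05 between Hmga2 KO and wild type (limma, Benjamini-Hochberg over all genes), where 0.0275% of all genes did. At an unadjusted p under 0.05, 6 of the 51 genes differed, or 11.8%, which is near the 13.3% of all genes. The 3 that were higher in Hmga2 KO were Mmp23, Mmp16 and Adamtsl3, where 2.99% of all genes were higher at that level. The 3 that were lower were Adamtsl2, Timp4 and Adamtsl1, where 10.3% of all genes were lower. The groups did not overlap in 7 members, 2 higher and 5 lower in Hmga2 KO, against 11.7% of all genes (2.37% higher and 9.29% lower). With both directions pooled, the share of members called was thus close to the share of all genes, in which lower values in Hmga2 KO were the more frequent. By direction, 5.88% of the members were higher and 5.88% lower at an unadjusted p under 0.05, which is 3 genes each.

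The median change of the 51 genes was -0.0014 and that of all genes -0.07, and 35 of the 51 lay above the latter value. For 38 of them the change was smaller than 0.25 in either direction, and for 6 it exceeded 1.5-fold. The lowest change was -0.90, in Adamtsl2, and the highest 1.20, in Adamtsl3. On simulated arrays of these 18193 genes, with changes placed outside the dimmest 40%, limma recovered 81.4% of genes changed 2-fold and 24.6% of genes changed 1.5-fold at the adjusted threshold. False calls were 5.68% and 6.46% of all calls in the same order. The simulated noise was independent between genes, without sex or culture effects. Recovery was not computed for the 51 genes themselves, whose spread among replicates was wider than that of all genes.

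**Figure D1:**
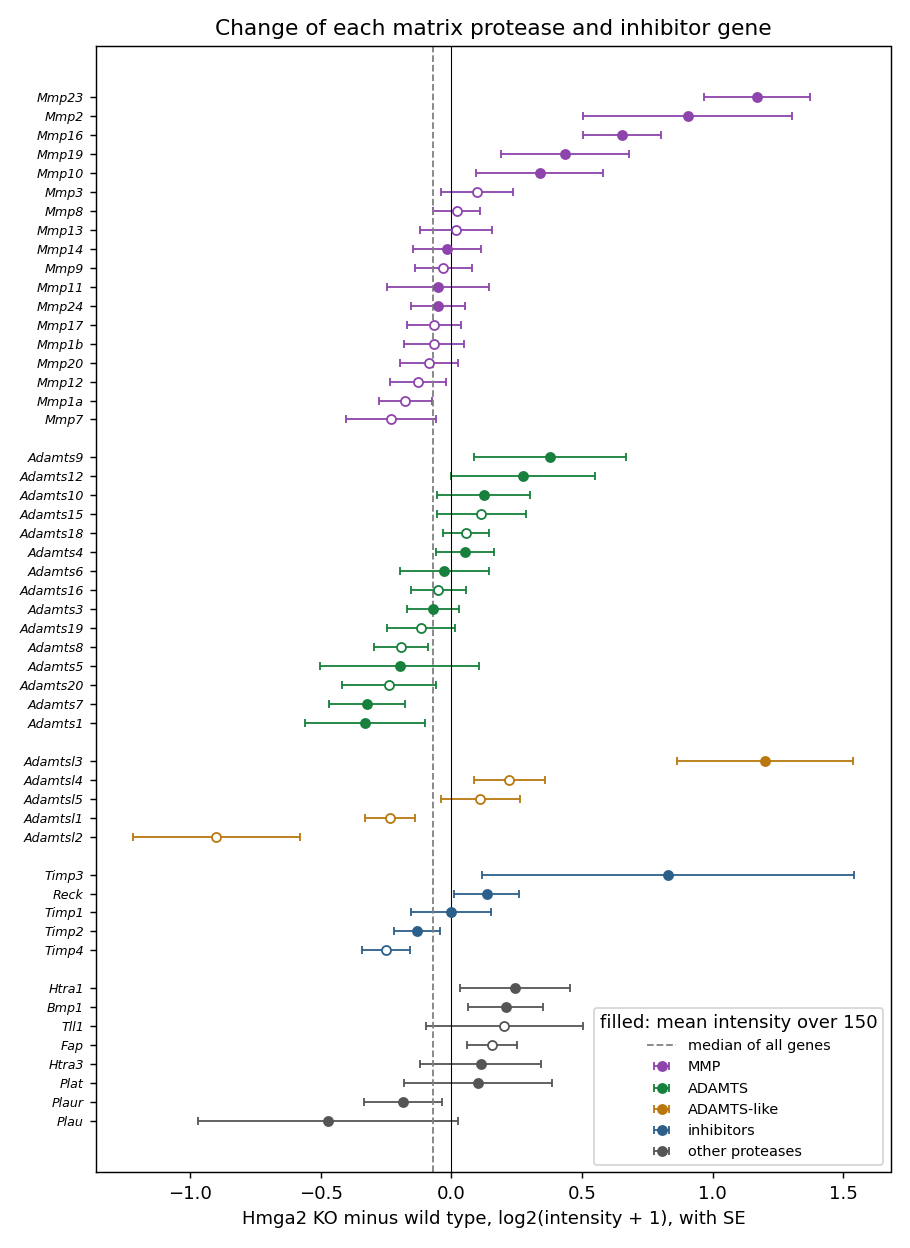
Change of each of the 51 genes between Hmga2 KO and wild type on the log2(intensity + 1) scale, grouped by family, with bars for the standard error from limma and filled points for mean intensities over 150. Mmp23 and Adamtsl3 stand farthest to the right with changes of 1.17 and 1.20, and Adamtsl2 farthest to the left with -0.90, while most genes lie near the dashed median of all genes.

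Among the metalloproteinases the membrane-bound enzymes Mmp23 and Mmp16 separated the genotypes most clearly. Mmp23 encodes an unusual metalloproteinase that is inserted in the membrane by its amino-terminal end and is released by cleavage within the cell. Its intensity was 1029, 843.8, 1124 and 773.1 in Hmga2 KO replicates 1 to 4, against 460.2, 297.0 and 518.1 in wild type. Every Hmga2 KO sample, male or female, thus lay above every wild type sample. The means were 942.4 ± 162.1 in Hmga2 KO (SD, n = 4) and 425.1 ± 114.6 in wild type (SD, n = 3), a change of 1.17 on the log2 scale (SE 0.204) or 2.25-fold. Its unadjusted p of 2.82e-04 was the smallest of the 51, but over all genes it did not pass (adjusted p = 0.190, limma). The other Mmp23 probe set read 333.3 to 537.9 in Hmga2 KO and 136.9 to 254.2 in wild type, with a change of 1.11 and again no overlap. In females alone the change was 0.96 (adjusted p = 0.501, limma).

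Mmp16 encodes a membrane-type metalloproteinase that can activate the Mmp2 precursor at the cell surface. It read 259.2, 361.2, 311.2 and 247.7 in Hmga2 KO replicates 1 to 4, against 198.6, 198.9 and 160.4 in wild type. The groups did not overlap, and the change was 0.65 (SE 0.150, unadjusted p = 0.00186, adjusted p = 0.224, limma). All 4 of its probe sets kept the groups apart, with changes of 0.65, 0.72, 0.73 and 0.31 from the brightest to the dimmest. The change in females alone was 0.69 (adjusted p = 0.523), and the male and female Hmga2 KO samples had means of 8.15 and 8.23 on the log2 scale.

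**Figure D2:**
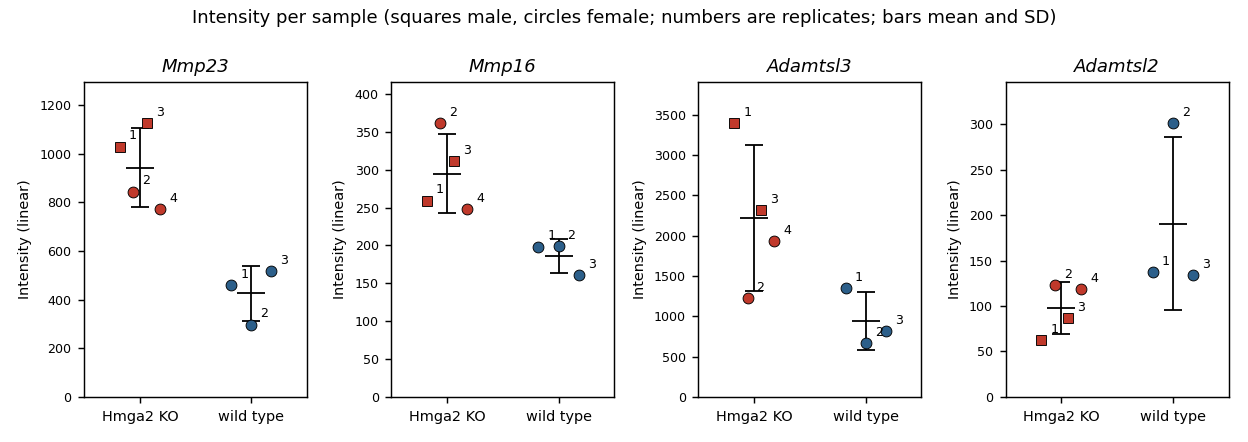
Intensity per sample on a linear scale starting at 0 for Mmp23, Mmp16, Adamtsl3 and Adamtsl2, with Hmga2 KO on the left and wild type on the right, replicate numbers beside the points, squares for male and circles for female samples, and bars for the mean and SD. The groups do not overlap for Mmp23, Mmp16 and Adamtsl2, whereas for Adamtsl3 the lowest Hmga2 KO sample (1228) lies below the highest wild type sample (1349).

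The other measured membrane-type enzymes differed little between the groups on their brightest probe sets. Mmp14, the main collagen-cutting enzyme of the cell surface, averaged 1259 ± 58.9 in Hmga2 KO and 1286 ± 235.2 in wild type (SD, n = 4 and 3), a change of -0.02 (SE 0.130). Mmp24, a membrane-type enzyme best known from neurons, averaged 677.1 in Hmga2 KO and 699.5 in wild type. Its dimmer probe sets were lower in Hmga2 KO without overlap, with changes of -0.09 and -0.21. The dimmest of these was within the background in every sample. Mmp17, which is held in the membrane by a lipid anchor, read 84.6 to 100.4 in Hmga2 KO and 89.8 to 103.2 in wild type.

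The gelatinases cut denatured collagen and basement membrane collagen. Mmp2, the gelatinase that Mmp14 and Mmp16 can activate, read 585.1, 312.8, 625.0 and 381.1 in Hmga2 KO replicates 1 to 4, against 260.5, 443.8 and 124.8 in wild type. The male Hmga2 KO samples were the highest and wild type replicate 3 the lowest, and the groups overlapped. The change of 0.90 had an unadjusted p of 0.0502 and an adjusted p = 0.375 (limma), and the change was 0.43 without wild type replicate 3 and 0.50 in females alone. Mmp2 is given with its change, as are Timp3, Adamts9 and Plaur below, after its values were seen. Mmp9, the gelatinase of inflamed and regenerating tissue, was dim, with 75.1 to 84.3 in Hmga2 KO and 74.1 to 95.8 in wild type.

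Most genes of the Mmp cluster, which holds the secreted collagenases and stromelysins, were dim. The collagenase gene Mmp1a read 47.0, 51.6, 49.5 and 40.6 in Hmga2 KO, against 52.7, 52.8 and 54.1 in wild type, without overlap but within the background range in every sample (change -0.18, SE 0.103, adjusted p = 0.474, limma). Of the 9 measured genes of the Mmp cluster, 8 (all but Mmp10) had intensities of 34.3 to 95.6 across all samples. Mmp10, a stromelysin that cuts proteoglycans and basement membrane proteins, read 263.6, 177.3, 183.6 and 236.3 in Hmga2 KO replicates 1 to 4, against 176.4, 112.0 and 238.8 in wild type. These groups overlapped (adjusted p = 0.561, limma). Both motifs marked in the Mmp10 promoter above were thus also present before cluster genes whose signal did not exceed 95.6.

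Outside the cluster, Mmp11, which is activated by furin before secretion, averaged 575.5 ± 82.6 in Hmga2 KO and 607.8 ± 162.5 in wild type (SD, n = 4 and 3). Mmp19, a secreted enzyme of basement membranes, read 782.4, 1133, 1602 and 1085 in Hmga2 KO replicates 1 to 4, against 1082, 637.4 and 812.5 in wild type. Hmga2 KO replicate 3 was high, and the other Hmga2 KO samples lay within or just above the wild type range.

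No ADAMTS protease reached an unadjusted p of 0.05, and the 15 changes ran from -0.33 to 0.38 with a median of -0.05. Of these genes 9 had a mean intensity over 150. Adamts4, an aggrecanase, read 6104, 6662, 7819 and 7520 in Hmga2 KO replicates 1 to 4, against 7121, 6779 and 6361 in wild type. The wild type samples thus fell inside the Hmga2 KO range on this bright probe set, and the change was 0.05 (SE 0.111). Adamts5, an aggrecanase and versicanase tied to myoblast fusion in the mouse, read 788.9, 1277, 508.8 and 573.2 in Hmga2 KO, against 894.6, 1054 and 639.2 in wild type. Its 2 next brightest probe sets gave the same order of the Hmga2 KO samples, with replicate 2 highest and replicate 3 lowest.

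Adamts9, a versican-cutting protease, read 344.0, 797.0, 470.1 and 715.4 in Hmga2 KO replicates 1 to 4, against 529.5, 321.3 and 446.8 in wild type. On this probe set both female Hmga2 KO samples stood above all wild type samples and the male ones did not, so that the change was 0.38 over all samples (adjusted p = 0.583) and 0.83 in females alone (unadjusted p = 0.00438, adjusted p = 0.523, limma). The pattern was not the same on the other probe sets. On the second, Hmga2 KO replicate 4, a female, read 203.8 and fell within the wild type range of 182.1 to 217.2, whereas the male replicate 1 read 222.8 and the change was 0.13. On the dimmest probe set, at 104.1 to 126.9 over all samples, the Hmga2 KO samples lay below the wild type samples instead. The versican- and aggrecan-cutting Adamts1 averaged 258.7 in Hmga2 KO and 323.2 in wild type. Adamts7 and Adamts12, which bind the cartilage matrix protein COMP, averaged 146.7 and 244.7 in Hmga2 KO, against 186.7 and 196.3 in wild type. The groups overlapped for all 3 of these genes. Adamts6 and Adamts10, which act on fibrillin microfibrils, averaged 269.6 and 341.3 in Hmga2 KO, against 269.7 and 310.9 in wild type. Adamts3, which processes procollagen and growth factor precursors, averaged 168.9 in Hmga2 KO and 177.1 in wild type.

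The ADAMTS-like genes included the highest and the lowest change of the 51. Adamtsl3 encodes a secreted matrix glycoprotein without protease activity. It read 3391, 1228, 2320 and 1929 in Hmga2 KO replicates 1 to 4, against 1349, 670.0 and 813.2 in wild type. Only Hmga2 KO replicate 2 fell within the wild type range, and the change was 1.20 (SE 0.337, unadjusted p = 0.00610, adjusted p = 0.284, limma). In females alone the change was 0.77 (adjusted p = 0.720), since the male Hmga2 KO samples averaged 11.45 and the female ones 10.59 on the log2 scale.

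Adamtsl2, which binds fibrillin and is tied in human disease to excess TGF-beta signalling, went the other way. It read 62.2, 122.9, 87.1 and 118.9 in Hmga2 KO replicates 1 to 4, against 137.0, 300.9 and 134.2 in wild type. The groups did not overlap, but wild type replicate 2 alone was well above the other samples. The change was -0.90 (SE 0.321, unadjusted p = 0.0207, adjusted p = 0.313, limma), -0.52 without that replicate and -0.55 in females alone. Adamtsl1 was dim on its 3 probe sets. The brightest read 56.6, 57.3, 59.4 and 65.2 in Hmga2 KO, against 66.3, 75.4 and 69.4 in wild type, without overlap (change -0.23, SE 0.0947, unadjusted p = 0.0350, adjusted p = 0.344, limma). A second Adamtsl1 probe set gave -0.49, also without overlap, and the third 0.05.

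**Figure D3:**
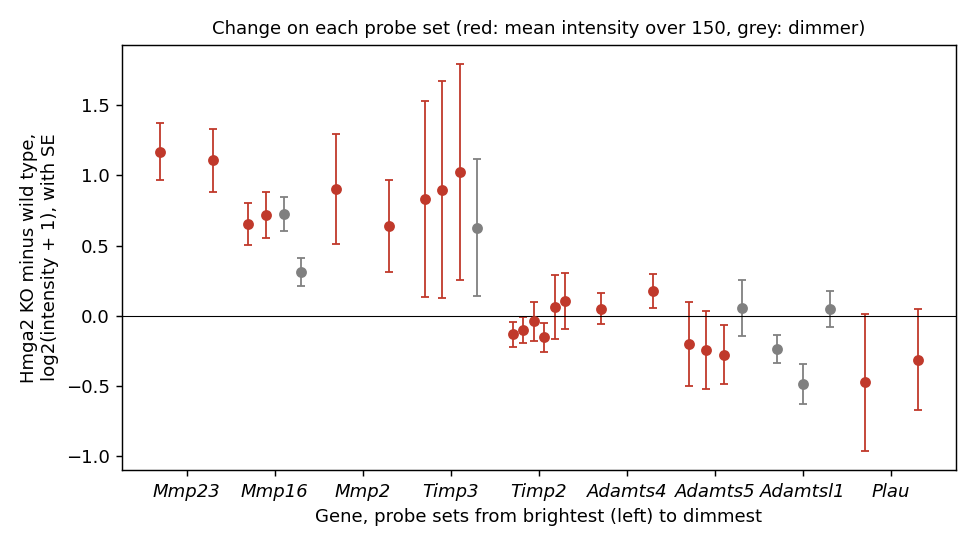
Change between Hmga2 KO and wild type, with standard errors, on each probe set of 9 members, ordered within a gene from the brightest to the dimmest. The probe sets of Mmp23 and Mmp16 all lie above 0, those of Timp3 lie above 0 with wide errors, and the 6 of Timp2 scatter around 0.

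Among the inhibitors Timp1, Timp2 and Reck differed little between the genotypes. Timp1, a secreted inhibitor of most metalloproteinases, read 5841, 3709, 4342 and 4579 in Hmga2 KO replicates 1 to 4, against 4236, 5072 and 4414 in wild type, and its change was -0.0014 (SE 0.152). Timp2, which both inhibits Mmp14 and helps it to activate Mmp2, read 7880, 8002, 7668 and 7626 in Hmga2 KO, against 8221, 8223 and 9200 in wild type. These groups did not overlap, yet the change was -0.13 (SE 0.0871, adjusted p = 0.525, limma), and its 6 probe sets gave -0.15 to 0.11, with no other probe set free of overlap. Reck read 385.3, 375.1, 305.8 and 439.9 in Hmga2 KO, against 331.1, 353.7 and 335.3 in wild type, with the wild type samples inside the Hmga2 KO range. Timp4, the inhibitor best known from the heart, was dim, with 81.4, 79.3, 76.4 and 68.6 in Hmga2 KO replicates 1 to 4, against 88.7, 91.1 and 92.8 in wild type. Every Hmga2 KO sample was below every wild type sample (change -0.25, SE 0.0929, unadjusted p = 0.0249, adjusted p = 0.325, limma). Its other probe set overlapped between the groups.

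Timp3, the inhibitor that is bound to the matrix and also blocks ADAMTS proteases, varied more within Hmga2 KO than any other member. It read 3664, 315.5, 1853 and 1270 in Hmga2 KO replicates 1 to 4, against 1304, 538.1 and 537.8 in wild type. The highest Hmga2 KO sample was 11.6 times the lowest, and the highest wild type sample 2.42 times the lowest. Hmga2 KO replicate 2 was the lowest and replicate 1 the highest of the 7 samples on all 4 Timp3 probe sets. The change of 0.83 had an SE of 0.714 and did not pass (adjusted p = 0.625, limma), and it was -0.19 in females alone. Single samples moved it both ways, to 1.503 without Hmga2 KO replicate 2 (unadjusted p = 0.00818, adjusted p = 0.176, limma), 0.33 without Hmga2 KO replicate 1 and 1.25 without wild type replicate 1. Some fibroblast markers differed between the same samples. Col1a2, a chain of type I collagen, read 1921, 100.7, 361.7 and 199.6 in Hmga2 KO replicates 1 to 4, against 538.0, 156.8 and 207.3 in wild type. Col1a1, the other chain, read 2189, 69.0, 1061 and 1052 in Hmga2 KO, against 2891, 733.7 and 551.5 in wild type. Both genes were lowest in Hmga2 KO replicate 2, as Timp3 was. Other fibroblast markers went the other way there. Mgp, Islr, Smoc2, Thy1, Dpt and Dcn were highest in that replicate of all 7 samples. The part of any of these markers in the Timp3 values was not tested.

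Replicates of Hmga2 KO also differed widely in Plau. It encodes the urokinase that starts plasmin formation at the cell surface, and it read 672.8, 2278, 2057 and 591.0 in Hmga2 KO replicates 1 to 4, against 2121, 1859 and 1084 in wild type. Replicates 1 and 4 of Hmga2 KO were low and replicates 2 and 3 at the level of the upper wild type samples, on the dimmer Plau probe set as well. Plaur, the urokinase receptor, read 1713, 1097, 1474 and 1384 in Hmga2 KO, against 1718, 1458 and 1612 in wild type, with a change of -0.19 (adjusted p = 0.599) that was -0.37 in females alone (unadjusted p = 0.0393, adjusted p = 0.720, limma). Plat, the tissue-type activator, averaged 205.1 ± 61.0 in Hmga2 KO and 193.4 ± 76.4 in wild type (SD, n = 4 and 3).

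Among the remaining proteases, Bmp1, which removes the carboxyl-terminal propeptides of fibrillar procollagens, averaged 433.7 ± 64.5 in Hmga2 KO and 374.8 ± 51.2 in wild type (SD, n = 4 and 3). Its relative Tll1 read 113.9, 40.2, 54.1 and 55.8 in Hmga2 KO, against 63.3, 45.9 and 51.2 in wild type, so that replicate 1 of Hmga2 KO alone stood high. Htra1 and Htra3, secreted serine proteases, averaged 493.4 and 815.5 in Hmga2 KO, against 404.3 and 772.0 in wild type. Fap, a serine protease of activated fibroblasts, stayed at or below the background, with 50.7 to 57.7 in Hmga2 KO and 43.7 to 50.8 in wild type.

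**Figure D4:**
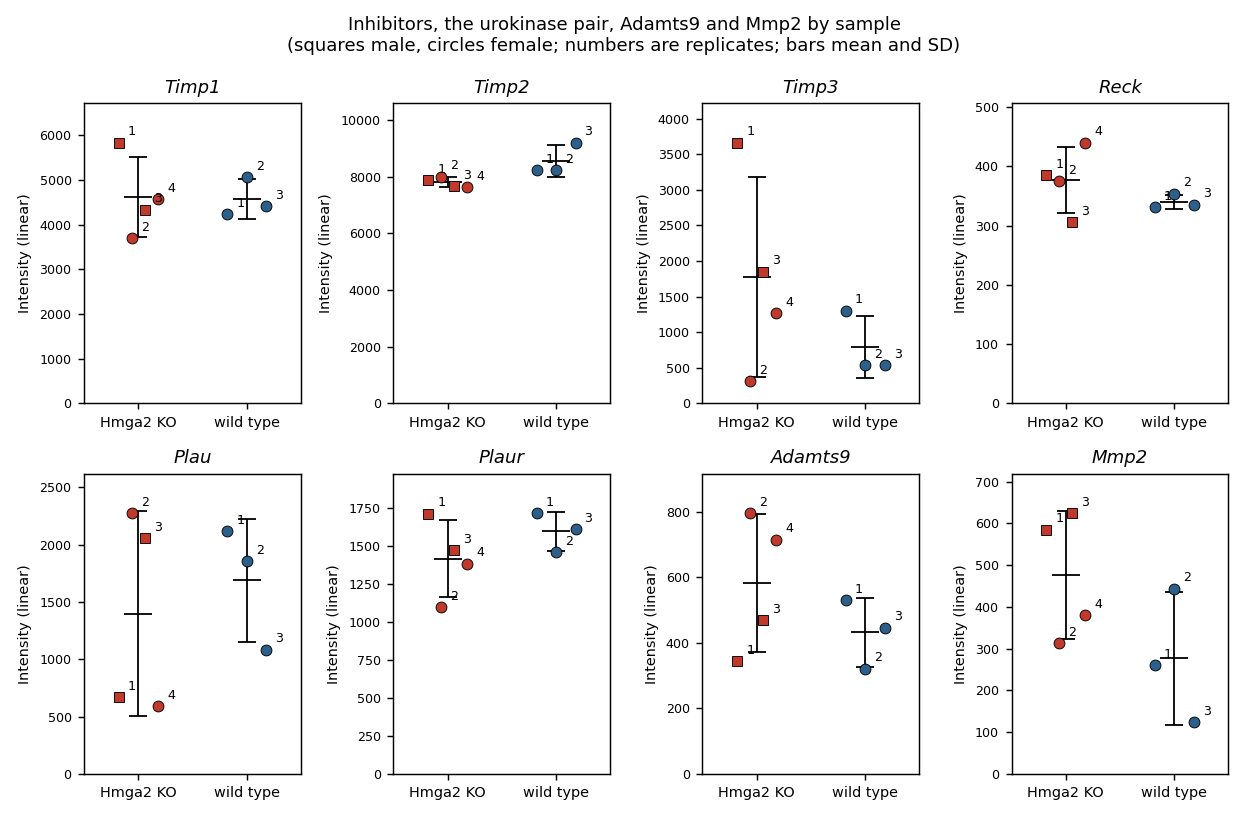
Intensity per sample on linear axes from 0 for 4 inhibitors, Plau, Plaur, Adamts9 and Mmp2, with Hmga2 KO left of wild type, replicate numbers beside the points, squares for males and bars for the mean and SD. Timp3 spans 315.5 to 3664 within Hmga2 KO, Plau splits the Hmga2 KO samples into 2 low and 2 high ones, and Timp1 and Timp2 stay level.

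All wild type samples being female, the Hmga2 KO samples were also split by sex, and males were set against females in a fit of 3 groups. None of the 51 genes passed (adjusted p = 0.528 at the least, limma), where 0.0385% of all genes did. At an unadjusted p under 0.05 there were 6 of 51, against 6.29% of all genes. Of these 4 were higher in males (2.65% of all genes) and 2 lower (3.64%). Timp3 had mean log2 values of 11.35 in Hmga2 KO males and 9.31 in Hmga2 KO females (difference 2.04, SE 0.666). Htra1 had 9.21 in males and 8.60 in females, Adamts6 8.30 and 7.80 in the same order, and Adamtsl3 differed by 0.87. Adamts9 had 8.66 in males and 9.56 in females (difference -0.91, SE 0.242, unadjusted p = 0.0052), and Mmp7, at the edge of the background, differed by -0.46. With 2 samples of each sex, a difference between sexes and one between individual cultures cannot be told apart.

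In the 5 females alone, 6 members again had an unadjusted p under 0.05, where 6.83% of all genes did, and none passed after adjustment (limma), where 0.0275% of all genes did. With no male in wild type, a sex term in the model of all samples gave the same changes as the females alone. It is therefore not a second, separate result. Its counts were 6 and 0 (limma), where 7.39% of all genes had an unadjusted p under 0.05 and 0.022% passed. The lists for all samples and for females shared 4 genes, which are Mmp23, Mmp16, Adamtsl3 and Timp4. The other 2 in females were Adamts9 and Plaur.

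**Figure D5:**
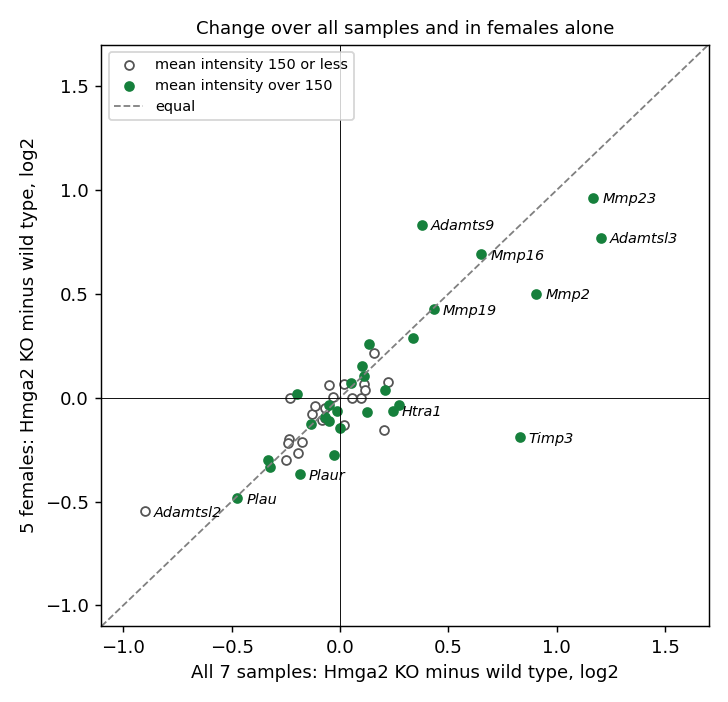
Change of each of the 51 genes over all 7 samples (horizontal) against the change in the 5 female samples (vertical), both Hmga2 KO minus wild type on the log2 scale and sharing the wild type samples, with filled points for mean intensities over 150. Mmp16 lies near the dashed line of equal change and Mmp23 below it at 0.96 in females, Adamts9 lies above it at 0.83 in females, and Timp3 falls to -0.19 in females.

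The spread among replicates was wider in these genes than over all genes, as a description without a test. The median SD of log2 values within Hmga2 KO was 0.22 for the 51 genes and 0.14 for all genes, and within wild type 0.19 for the 51 genes and 0.16 for all genes. Besides Timp3, the widest spans within Hmga2 KO were those of Plau, whose highest sample was 3.85 times the lowest, Tll1 (2.83 times) and Adamtsl3 (2.76 times). In wild type the widest was Mmp2, with 3.56 times.

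A list of 60 further genes of the protease system, of which 57 were measured, was set beside these members. At an unadjusted p under 0.05, 4 of the 57 were higher and 4 lower in Hmga2 KO, where 2.99% of all genes were higher and 10.3% lower, and none passed after adjustment (limma). Among the higher ones, Lrp1, the endocytic receptor that clears proteases and their inhibitors, read 3040, 1819, 1999 and 2498 in Hmga2 KO replicates 1 to 4, against 1575, 1367 and 1254 in wild type (change 0.72, SE 0.177, adjusted p = 0.249). Every Hmga2 KO sample was above every wild type sample. Adam8, a membrane protease first known from leukocytes, read 242.1, 208.0, 537.9 and 236.9 in Hmga2 KO, against 108.2, 164.2 and 122.7 in wild type (change 1.12, adjusted p = 0.276), again without overlap. The catalytically inactive Adam23 had a change of 0.54, without overlap, but 0.33 without wild type replicate 3 and 0.21 as the mean of its probe sets, and the proteoglycan gene Spock1 had 0.81.

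In the other direction stood Mme, the membrane peptidase neprilysin, with 432.9, 389.7, 262.0 and 333.2 in Hmga2 KO replicates 1 to 4, against 600.7, 675.9 and 703.4 in wild type. Its change was -0.92 (SE 0.165, unadjusted p = 3.60e-04, adjusted p = 0.193, limma) without overlap. Pcsk6, a convertase that activates precursor proteins, had a change of -0.28, the lysosomal protease gene Ctsc -0.63 (but -0.18 as the mean of its probe sets), the dim Spock3 -0.26 and the hyaluronidase gene Hyal2 -0.23, the last with an unadjusted p of 0.0503. The sheddase genes had the highest median change of the 5 groups in this list, 0.09 over 10 genes, and the other 4 groups had medians of -0.05 to -0.02.

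Fibroblast and sarcomere markers differed in part between the genotypes, whereas the summed leukocyte and smooth muscle markers overlapped. The summed endothelial markers did not overlap, but no single one had an unadjusted p under 0.05 (limma) or groups without overlap. Endothelial markers were all dim, with mean intensities of at most 99.1, and Tek was within the background in every sample. The part of all these markers in the results was not tested. Fibroblast markers, with 14 measured, summed to 16113 to 19505 in Hmga2 KO and 13871 to 14285 in wild type. Of them 4 had an unadjusted p under 0.05 (limma), all higher in Hmga2 KO, where 2.99% of all genes were higher. These 4 were Mgp, Smoc2, Islr and Dcn. In all, 10 of the 14 had a positive change and 4, namely Col1a1, Thy1, Tcf21 and Osr1, a negative one. Col1a1 had a change of -0.71, with the values given beside Timp3. Pdgfra read 620.0, 189.3, 195.4 and 200.1 in Hmga2 KO, against 382.7, 136.6 and 132.8 in wild type, and Cd34 read 527.1 in Hmga2 KO replicate 1 and at most 173.8 elsewhere. Dcn read 63.0 to 82.5 in Hmga2 KO and 55.7 to 64.2 in wild type. Over all 7 samples Lum read 49.1 to 60.0 and Dpt 38.9 to 61.0, at or near the background. The summed intensity of 15 sarcomere genes was 26733 to 65770 in Hmga2 KO, lowest in replicate 1, against 58738 to 84271 in wild type. Of these genes 10 had an unadjusted p under 0.05 (limma), all lower in Hmga2 KO, where 10.3% of all genes were lower. Hmga2 KO replicate 1, with the lowest sarcomere sum, had the highest Timp3, Adamtsl3, Tll1 and Timp1 values of the 7 samples and the lowest Adamtsl2 value. These were not the only such members. Replicate 1 was also highest for Htra1, Bmp1, Mmp24, Adamts6, Adamts10, Adamts12, Mmp10, Mmp3 and Mmp13. For Plat, Adamtsl1, Adamts19, Adamts20, Mmp8 and Mmp12 it was the lowest. It also had the highest Col1a2, Pdgfra and Cd34 values and the highest summed fibroblast markers. Not all fibroblast markers followed. Mgp (4003.5) and Islr (1196) were lowest in replicate 1 among the 4 Hmga2 KO samples, and Col1a1 was highest in wild type replicate 1. Leukocyte markers, with 12 measured, summed to 1049 to 1134 in Hmga2 KO and 1041 to 1213 in wild type, and endothelial markers, with 8, to 581.2 to 614.0 in Hmga2 KO and 640.8 to 661.3 in wild type. Smooth muscle and pericyte markers, also 8, summed to 19157 to 27513 in Hmga2 KO and 17462 to 26508 in wild type. Among them Rgs5 read 9508, 10110, 11001 and 5946 in Hmga2 KO replicates 1 to 4, against 3078, 6701 and 949.3 in wild type. Its groups overlapped, and its change was 1.72 (unadjusted p = 0.0117, adjusted p = 0.296, limma).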

How the data were processed

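Total RNA of myoblasts was turned into biotinylated cRNA for Affymetrix arrays, as stated per the labels. The authors deposited 1 linear intensity for each probe set and sample, and the median of every array is 150. The methods of summarization and background correction were not given in the sources used here. No detection call was used, and the number of arrays limits precision. Probe sets were named by the platform table, with 0 symbols changed through RefSeq gene identifiers. Those of several genes were left out, and the brightest probe set by mean intensity stood for a gene. The array table names no build, so coordinates are given only for RefSeq promoters.

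Values were compared as log2(intensity + 1) with limma 3.58.1 in R 4.3.3, without covariates, as lmFit and eBayes with Benjamini-Hochberg adjustment over 18193 genes. Named members have an unadjusted p under 0.05 or groups that do not overlap. Levels are given for the brightest members, inhibitors, plasminogen activators and gelatinases, and those of further members were added after their values were seen. The members, lists and tests were chosen with earlier results of these data known. The labels call the samples biological replicates. Other settings tried were a sex term, only the female samples, a block for replicate numbers, each sample left out in turn, quantile normalization, a filter that drops the dimmest 40% of genes, other probe set choices, a trended robust prior, array weights and a pseudocount of 16. The fit was tested on simulated data.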

Additional observations from a re-analysis of the deposited data

Results flagged for a closer look

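Mmp24, a membrane-type metalloproteinase gene, stood out in 1 of the 4 Hmga2 KO samples. Replicate 1 read 777.9, and the other Hmga2 KO samples read 639.5, 638.4 and 652.7, so that its gap to the nearest sample was 0.888 of the range of the group on the log2 scale, above Dixon's critical value for 4 samples. The wild type samples read 720.5, 663.6 and 714.4. On the next probe set of Mmp24 the Hmga2 KO samples read 109.2 to 117.5, against 118.4 to 123.8 in wild type, and replicate 1 did not stand apart. This was 1 of 51 genes examined, and chance passes this limit in about 1 of 20 groups.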

How the results depend on the processing

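Over all genes, 5 passed the adjusted threshold between Hmga2 KO and wild type, and 2 to 17 when 1 sample was left out (17 without Hmga2 KO replicate 2). Members with an unadjusted p under 0.05 numbered 6, 5 to 9 with 1 sample left out, and 3 with the dimmest 40% of genes left out, which removes dim members from the test. The share of all genes at that level was not computed for these alternatives, so the counts cannot be set against it. Between male and female Hmga2 KO samples 7 genes passed, and 3 with the dimmest 40% left out. With the replicate block 99 genes passed, among them 3 members, namely Mmp23 (change 1.26, adjusted p = 0.0151), Adamtsl3 (1.24, adjusted p = 0.0279) and Adamtsl2 (-1.01, adjusted p = 0.0407). Same-numbered samples of the 2 groups are different animals. Their deviations from the group means correlated at 0.31, 0.37 and -0.18 for numbers 1, 2 and 3. The first 2 values were the highest between any Hmga2 KO and wild type sample, whereas Hmga2 KO replicate 3 correlated best with wild type replicate 2. Whether the numbers stand for a shared batch cannot be told from these samples. Hmga2 KO replicate 4 has no wild type sample of its number, so it adds nothing to the changes under the block. In every other alternative no member passed, and the adjusted p of Mmp23 was 0.104 to 0.501. The change of Timp3 turned to -0.19 in females alone and, by the same contrast, with sex in the model. That of Timp2 turned to 0.064 on its most variable probe set. As the mean of probe sets, the difference of male minus female Hmga2 KO samples was -0.35 for Adamts9 and 0.31 for Adamts6, and the change of Adamts9 between genotypes was 0.12. Leaving out a Hmga2 KO sample gave Plaur a change of -0.28 (replicate 1) or -0.07 (replicate 2), that of Timp2 was -0.08 without wild type replicate 3, that of Mmp1a was -0.11 without Hmga2 KO replicate 4, and that of Hyal2 was -0.10 after quantile normalization. The cause was not tested. Of the other values of single genes under the alternatives, 375 kept their direction and their side of the threshold.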
